A study of Mus musculus with 10 samples.

Results

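Elastic fibres are made by a small set of extracellular proteins, and 10 genes of the set were followed here in whole mouse lung: Eln, Fbn1, Fbln1, Fbln5, Mfap4, Mfap5, Emilin1, Ltbp4, Lox and Loxl1. They were taken by gene symbol from a count table of 54532 genes, each symbol had 1 row, and all 10 passed the filter on low counts that left 17139 genes to test. The series compared 3 groups of lung libraries, all labelled wild type (WT) and made from Trizol total RNA. Vehicle had 3 libraries. LPS (lipopolysaccharide), a bacterial glycolipid sensed by TLR4, had 3. LPS+TSLP had 4 and came from lungs treated with recombinant thymic stromal lymphopoietin (TSLP), an epithelial cytokine, ahead of LPS. Strain, age, dose, route and time are not given in the labels. Nothing in the labels ties the libraries of a group to separate animals, so p-values here measure the spread between samples, which may be technical.

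An elastic fibre has a core of crosslinked elastin laid on a scaffold of fibrillin microfibrils. Fibulins and latent TGF-beta binding proteins bring tropoelastin to the microfibrils, and lysyl oxidases, which are copper enzymes, crosslink it into an insoluble polymer. In the lung these fibres give alveolar walls, airways and vessels their recoil. Fibroblasts, smooth muscle and other mesenchymal cells make most of the components. In whole tissue, fewer such cells and less RNA per cell cannot be told apart.

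After LPS, 4 of the 10 genes passed the test as lower, where 10.7% of all genes tested did. They were Fbln1, Fbln5, Ltbp4 and Mfap5, which fell by 2.36-fold to 8.25-fold. Elastin itself, Fbn1, Mfap4, Emilin1, Loxl1 and Lox did not pass the test. With TSLP given ahead of LPS, no member passed the test against LPS alone. Fbln1, Fbln5 and Ltbp4 were still lower than in Vehicle, by 3.14-fold to 3.54-fold, where 5.35% of all genes tested were lower. The calls of Fbln1 and Fbln5 were lost, at adjusted p of up to 0.0857 and 0.0913, when any 1 of 3 libraries was left out.

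Ltbp4, Fbln5 and Fbln1 were called lower than Vehicle in both LPS-treated groups over all libraries, and their promoters are shown so that the start regions of the genes that moved can be set side by side. They come from RefSeq on GRCm38.p6, which lists 3 starts for Ltbp4 and 2 each for Fbln5 and Fbln1. The most upstream start was taken, with up to 250 bases before it, read 5′ to 3′ on the strand of the gene. Bases inside the GENCODE span of the gene were left out, which removed 80 from Ltbp4. The windows are chr7:27337693-27337862 for Ltbp4 (minus strand, 170 bases), chr12:101819120-101819369 for Fbln5 (minus strand) and chr15:85205699-85205948 for Fbln1 (plus strand). Capitals mark matches, on either strand, to 3 short elements. The first is the GC box, with the letters GGGCGG, a site known to bind Sp1. The second is the CCAAT box, whose letters are its name. The third is a SMAD element, with the letters CAGACA, known from TGF-beta target genes.
Ltbp4: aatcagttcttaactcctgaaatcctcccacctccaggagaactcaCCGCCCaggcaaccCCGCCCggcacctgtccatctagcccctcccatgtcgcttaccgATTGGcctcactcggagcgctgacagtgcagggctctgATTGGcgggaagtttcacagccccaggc
Fbln5: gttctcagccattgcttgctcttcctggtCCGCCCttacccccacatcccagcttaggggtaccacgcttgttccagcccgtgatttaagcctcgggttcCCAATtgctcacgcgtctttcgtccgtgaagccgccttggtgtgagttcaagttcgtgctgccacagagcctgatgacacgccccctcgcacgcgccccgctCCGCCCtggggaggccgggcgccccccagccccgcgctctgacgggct
Fbln1: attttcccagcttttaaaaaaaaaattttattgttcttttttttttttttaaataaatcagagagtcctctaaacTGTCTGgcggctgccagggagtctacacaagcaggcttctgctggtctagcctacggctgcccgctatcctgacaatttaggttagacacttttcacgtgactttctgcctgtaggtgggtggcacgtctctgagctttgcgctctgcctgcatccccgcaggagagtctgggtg
Ltbp4 held 2 GC boxes and 2 CCAAT boxes, and Fbln5 held 2 GC boxes and 1 CCAAT box. Fbln1 held neither and had 1 SMAD element. Among 32851 windows of 250 bases in the table, 32.7% held a GC box, 33.8% a CCAAT box and 17.1% a SMAD element. Over 170 bases, the length kept for Ltbp4, the shares were 19.5%, 23.3% and 12.6%. None of the 3 windows held the TATA box, TATAAA, found in 12.4% of windows of 250 bases and 8.0% of 170. Nor did they hold the AP-1 site with the letters TGACTCA, found in 4.5% and 3.0%. The palindromic SMAD box, GTCTAGAC, was also missing from them and was found in 0.2% and 0.1%. The 80 bases nearest the RefSeq start of Ltbp4 were not searched, so an element there could not be seen. GC content was 65.2% in Fbln5 and 46.4% in Fbln1, against a median of 52.4% over all windows of 250 bases, and 60.6% in Ltbp4, against a median of 51.2% over 170 bases. No motif was shared by all 3, and a match is only a match of letters. Sequences for the other 7 members were not used here; the windows of Fbn1 and Emilin1 lay wholly inside the GENCODE genes.

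Depth was even, with 16175172 to 18374461 counts per library. The 10 genes together took 0.134% to 0.476% of them, and the lowest count of a member in any library was 222. Levels are given as CPM, counts scaled to a common library size. A pair of libraries stood apart. LPS+TSLP replicate 1 had 13.1% of its counts in mitochondrial genes, and LPS+TSLP replicates 2 to 4 had 6.5%, 5.35% and 2%. The share was 1.11% to 1.27% in Vehicle and 1.2% to 2.58% in LPS, so it was uneven between groups. LPS replicate 1 held 206 CPM of Xist and 0 CPM of the Y-linked Ddx3y, where Xist was at most 0.452 CPM in every other library. Ddx3y was at 7.92, 6.03 and 11.4 CPM in Vehicle and at 59.7 to 94.8 CPM in the other LPS-treated libraries. That gap runs along Vehicle against LPS-treated lungs, and its cause was not tested. With LPS replicate 1 and LPS+TSLP replicate 1 left out, the calls of the members stayed in place and Loxl1 was added in LPS against Vehicle.

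Levels of different genes were compared only as CPM per kilobase of exon. In Vehicle, Mfap4 was the highest at 319.8 ± 75.01 CPM per kilobase (SD, n = 3), followed by Ltbp4 at 176.7 ± 70.19, Eln at 108.6 ± 79.1 and Loxl1 at 93 ± 12.65. Lower levels were found for Emilin1 (46.48 ± 7.582), Fbn1 (38.13 ± 15.9), Fbln1 (28.6 ± 18.29), Lox (25.29 ± 23.43), Fbln5 (21.91 ± 9.068) and Mfap5 (14.18 ± 4.464). Loxl1 and Emilin1 were the only neighbours in this order whose SD ranges did not overlap. Farther apart in the order, the range of Mfap4 was clear of those of Eln and Loxl1, and the range of Emilin1 was clear of those of Fbln5 and Mfap5. After LPS, Ltbp4 stood at 28.81 ± 6.941 CPM per kilobase, below Emilin1 (37.93 ± 2.903) with SD ranges that overlapped. Lox stood at 51.33 ± 12.08, next to Loxl1 (48.8 ± 5.215). Fbln1 had the lowest mean of the 10 at 3.464 ± 0.7615, within the spread of Fbln5 (5.052 ± 2.242). In LPS+TSLP, Mfap4 (227.2 ± 8.9) and Eln (141.1 ± 59.16) led, and their SD ranges did not overlap. Fbln5 was the lowest there at 6.976 ± 2.416 CPM per kilobase, within the spread of Fbln1 (8.679 ± 2.105).

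**Figure D1:**
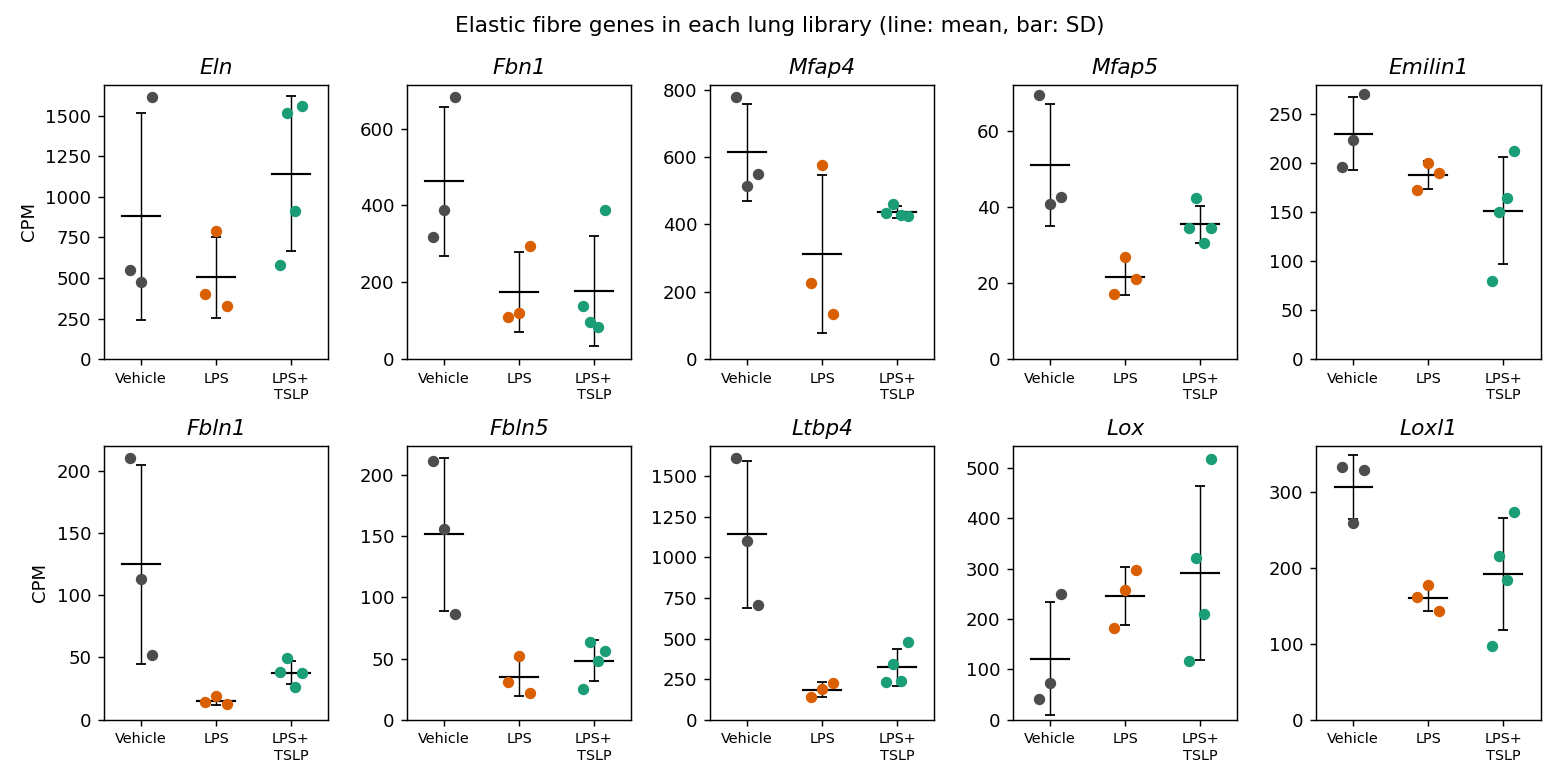
Level of each gene in CPM (y axis, linear, from 0, with its own scale in each panel) in the 3 groups (x axis); points are libraries, lines are group means and bars are SD. All 3 LPS libraries lie below all 3 Vehicle libraries for Fbn1, Mfap5, Fbln1, Fbln5, Ltbp4 and Loxl1, and Vehicle replicate 3 is the highest Vehicle library for Eln, Fbn1, Emilin1 and Lox.

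Comparing LPS with Vehicle asks how LPS alone altered these transcripts. Of the 10 genes, 4 passed edgeR's quasi-likelihood test (Benjamini-Hochberg adjusted p under 0.05 over all genes) as lower, where 10.7% of all 17139 genes did. None passed as higher, where 14.2% of all genes did; at an unadjusted p under 0.05 the numbers were 0 higher and 7 lower, where 6788 of all 17139 genes had such a p in either direction, and neither limma-voom nor the DESeq2 Wald test called a member higher. All LPS libraries lay below all Vehicle libraries for 6 genes (25.1% of all genes) and above them for 0 (24.7% of all genes). The median log2 fold change of the 10 was −1.11, beside 0.00837 over all genes tested, with 9 values below 0 and 1 above.

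Elastin did not pass. Eln (ENSMUSG00000029675, GRCm38 chr5:134702593-134747323, minus strand) encodes tropoelastin, the soluble subunit of the fibre core. It measured 546.8, 473.4 and 1618 CPM in Vehicle and 401.5, 790.6 and 325.1 CPM after LPS. The groups overlapped, and Vehicle replicate 3 held more Eln than the other Vehicle libraries put together. The log2 fold change was −0.80 (SE 0.53, adjusted p = 0.289), and −0.01 (adjusted p = 0.99) without that library.

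Of the microfibril genes, Mfap5 passed and Fbn1 did not, both with negative values. Mfap5 (ENSMUSG00000030116, chr6:122505845-122529290), a small glycoprotein carried on fibrillin, had 69.37, 40.73 and 42.60 CPM in Vehicle and 17.00, 26.72 and 21.05 CPM after LPS. The groups did not overlap, and Mfap5 fell by 1.24 on the log2 scale (SE 0.25, adjusted p = 0.00788). Fbn1 (ENSMUSG00000027204, chr2:125300594-125507993) encodes fibrillin-1, the backbone of the microfibril. Its values were 318.3, 387.5 and 681.5 CPM in Vehicle against 109.4, 119.2 and 293.4 CPM after LPS. No LPS library reached the lowest Vehicle library, yet the fitted difference of −1.41 (SE 0.60) missed the threshold (adjusted p = 0.103). It passed without LPS replicate 3, the highest LPS library, at −1.99 (adjusted p = 0.0477). Of the exon bases of Fbn1, 20.14% overlap Gm9913 on the other strand, a gene with 1 to 14 counts per library. The strand setting of the counting is not given in the sources used here, so reads of overlapping genes cannot be told apart.

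Mfap4 and Emilin1 complete the microfibril group. Mfap4 (ENSMUSG00000042436, chr11:61485431-61488900), which binds both elastin and fibrillin, measured 779.8, 514.6 and 549.4 CPM in Vehicle and 226.7, 576.6 and 133.5 CPM after LPS. LPS replicate 2 lay inside the Vehicle range and the other LPS libraries far below it. The log2 fold change was −0.98 (SE 0.42, adjusted p = 0.111), and without LPS replicate 2 it was −1.77 (adjusted p = 0.00831). Mapk7, with 485 to 997 counts per library, overlaps 4.63% of its exon bases on the other strand. Emilin1 (ENSMUSG00000029163, chr5:30913402-30921277), a glycoprotein at the border of elastin and microfibrils, varied least. It had 195.5, 223.3 and 269.6 CPM in Vehicle and 171.8, 200.1 and 189.9 CPM after LPS. These overlap, and the fitted log2 value was −0.29 (SE 0.30, adjusted p = 0.492).

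The assembly genes fell furthest. Fbln1 (ENSMUSG00000006369, chr15:85205949-85286535), a fibulin found in the elastin core, had 210.1, 113.0 and 51.67 CPM in Vehicle and 14.26, 18.81 and 12.33 CPM after LPS. The LPS libraries lay close together and far below Vehicle, which itself spread 4.067-fold. Fbln1 fell by 3.05 on the log2 scale (SE 0.44, adjusted p = 0.0024), or 8.25-fold. Fbln5 (ENSMUSG00000021186, chr12:101746565-101819055) binds tropoelastin and is required for elastic fibre formation in mice. It had 211.6, 156.1 and 86.51 CPM in Vehicle and 30.89, 52.02 and 21.83 CPM after LPS. Again no LPS library reached Vehicle, and Fbln5 fell by 2.12 (SE 0.43, adjusted p = 0.00765). Ltbp4 (ENSMUSG00000040488, chr7:27305136-27337692), a latent TGF-beta binding protein that helps fibulin-5 and elastin onto microfibrils, had 1615, 1102 and 710.1 CPM in Vehicle and 138.6, 192.3 and 227.7 CPM after LPS. It fell by 2.62 (SE 0.38, adjusted p = 0.00237), or 6.13-fold. For these 3 genes Vehicle replicate 1 was the highest and Vehicle replicate 3 the lowest library of the group. Without Vehicle replicate 1 the value of Fbln1 was −2.43, and without Vehicle replicate 3 it was −3.41.

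The crosslinking enzymes differed in sign, and neither passed. Loxl1 (ENSMUSG00000032334, chr9:58287738-58313186), the lysyl oxidase that fibulin-5 tethers to elastin, had 332.6, 258.5 and 328.8 CPM in Vehicle and 162.0, 177.5 and 143.2 CPM after LPS. The groups were separate, and the log2 fold change of −0.93 (SE 0.31) narrowly missed the threshold (adjusted p = 0.0507). It passed in 11 of 22 alternative settings, and adjusted p ranged from 0.00749 to 0.193 over them. Lox (ENSMUSG00000024529, chr18:52516067-52529867), the founding member of the family, was the 1 gene with a positive value. It had 41.40, 72.27 and 248.9 CPM in Vehicle and 182.6, 256.9 and 296.3 CPM after LPS. Vehicle replicate 3 lay among the LPS libraries and the other Vehicle libraries below them. Over all libraries the log2 fold change was 1.02 (SE 0.63, adjusted p = 0.252); without Vehicle replicate 3 it was 2.11 (adjusted p = 0.0216).

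**Figure D2:**
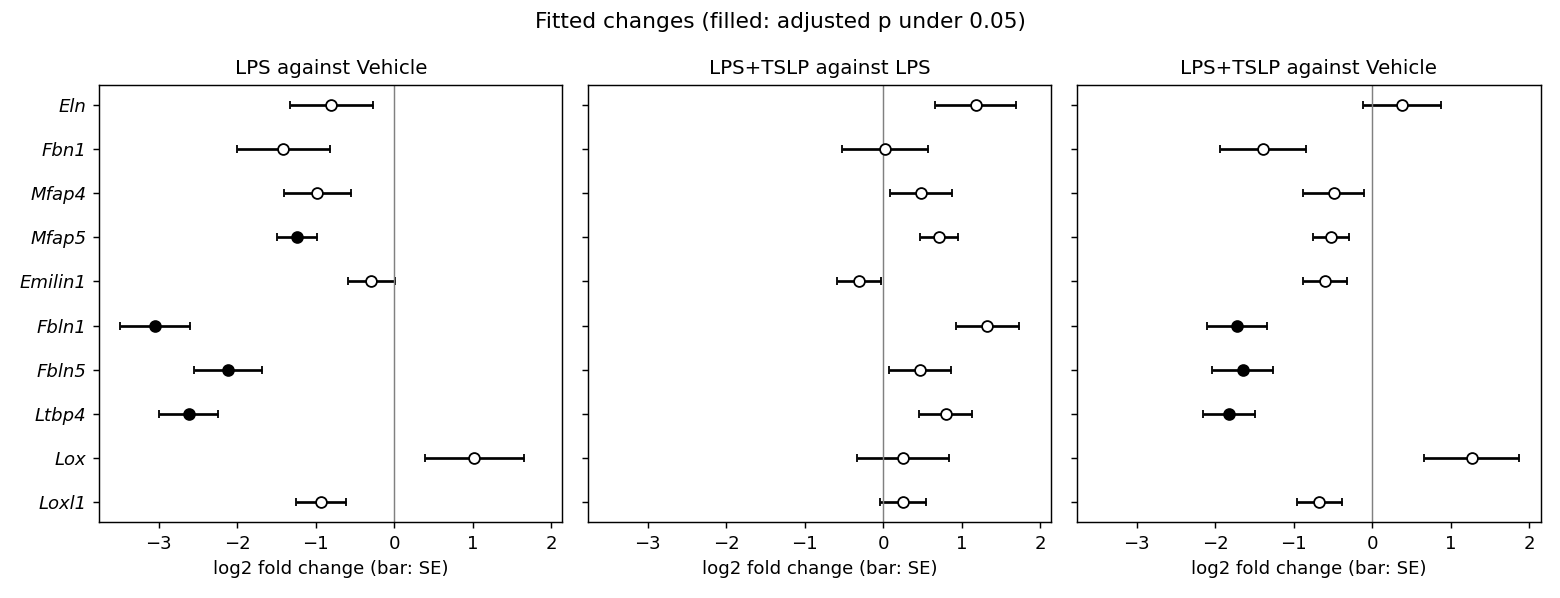
Fitted log2 fold change (x axis) of each gene (y axis) in the 3 comparisons, with bars for the standard error and filled points for an adjusted p under 0.05. Filled points are Mfap5, Fbln1, Fbln5 and Ltbp4 for LPS against Vehicle, none for LPS+TSLP against LPS, and Fbln1, Fbln5 and Ltbp4 for LPS+TSLP against Vehicle; Lox is the only gene to the right of 0 in all 3 panels.

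LPS+TSLP against LPS asks what TSLP given beforehand changed. It shares the LPS libraries with the comparison above, so the values of both comparisons are not independent. No gene of the table passed edgeR's test, in either direction: 0% of all genes were called higher and 0% lower, with a smallest adjusted p of 0.589, and 1388 genes had an unadjusted p under 0.05. Among the 10 genes, 0 were called in either direction, and 4 had a positive value with an unadjusted p under 0.05 (Eln, Fbln1, Mfap5 and Ltbp4). The DESeq2 Wald test called 22 genes of the table higher and 13 lower, with none of the 10 among them, and limma-voom called none. The LPS+TSLP libraries all lay above the LPS libraries for 3 genes (3.88% of all genes) and below them for 0 (3.54% of all genes). The median log2 fold change of the 10 was 0.475, beside 0.0213 over all genes tested.

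The 3 genes without overlap were Fbln1, Mfap5 and Ltbp4, all of which had fallen after LPS. Fbln1 had 38.44, 49.21, 26.71 and 37.28 CPM in LPS+TSLP replicates 1 to 4, against 12.33 to 18.81 CPM after LPS. The log2 fold change was 1.32 (SE 0.40, adjusted p = 0.589). Mfap5 had 34.41, 42.18, 30.47 and 34.48 CPM, a tight group above the LPS range of 17.00 to 26.72 CPM, with a value of 0.71 (SE 0.24, adjusted p = 0.589). Ltbp4 had 231.6, 342.2, 239.9 and 477.2 CPM, and the lowest of these was next to the highest LPS library at 227.7 CPM. Its value was 0.79 (SE 0.34, adjusted p = 0.602). Fbln5 had 25.01, 63.36, 47.97 and 56.50 CPM, which overlapped LPS, and a value of 0.47 (SE 0.39, adjusted p = 0.792) that was 0.87 without LPS replicate 2 and 0.20 without LPS replicate 3.

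Eln had 578.3, 1518, 912.7 and 1562 CPM in LPS+TSLP. Of these libraries, 3 lay above every LPS library and replicate 1, the library with the highest mitochondrial share, lay inside the LPS range. The mean was 1143 ± 479.1 CPM (n = 4) against 505.7 ± 249.6 CPM after LPS (n = 3), and the fitted log2 value of 1.18 (SE 0.51) did not pass (adjusted p = 0.606). Mfap4 had 433.5, 461.8, 426.8 and 424.8 CPM, an SD of 17.11 CPM against 233.6 CPM among the LPS libraries, and its value was 0.48 (SE 0.40, adjusted p = 0.787). That value was 1.28 without LPS replicate 2 and 0.12 without LPS replicate 3. Emilin1 was the only member with a negative value, −0.31 (SE 0.28, adjusted p = 0.809), from 79.13, 150.2, 163.5 and 211.5 CPM; its lowest library was again replicate 1.

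Replicate 4 was the highest LPS+TSLP library for Fbn1, Lox and Loxl1. Fbn1 had 138.9, 96.68, 82.53 and 388.4 CPM, and its value against LPS of 0.02 (SE 0.55, adjusted p = 0.995) ranged from −0.68 to 0.59 as single libraries were left out. Lox had 116.5, 320.5, 209.7 and 518.5 CPM, with a value of 0.25 (SE 0.59, adjusted p = 0.937). Loxl1 had 96.59, 215.6, 183.7 and 273.4 CPM, with a value of 0.26 (SE 0.29, adjusted p = 0.845). All of these overlapped the LPS libraries. The median log2 fold change of the 10 genes against LPS was 0.571 without LPS+TSLP replicate 1, 0.843 without LPS replicate 2 and 0.348 without LPS replicate 1, and none was called in these fits.

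**Figure D3:**
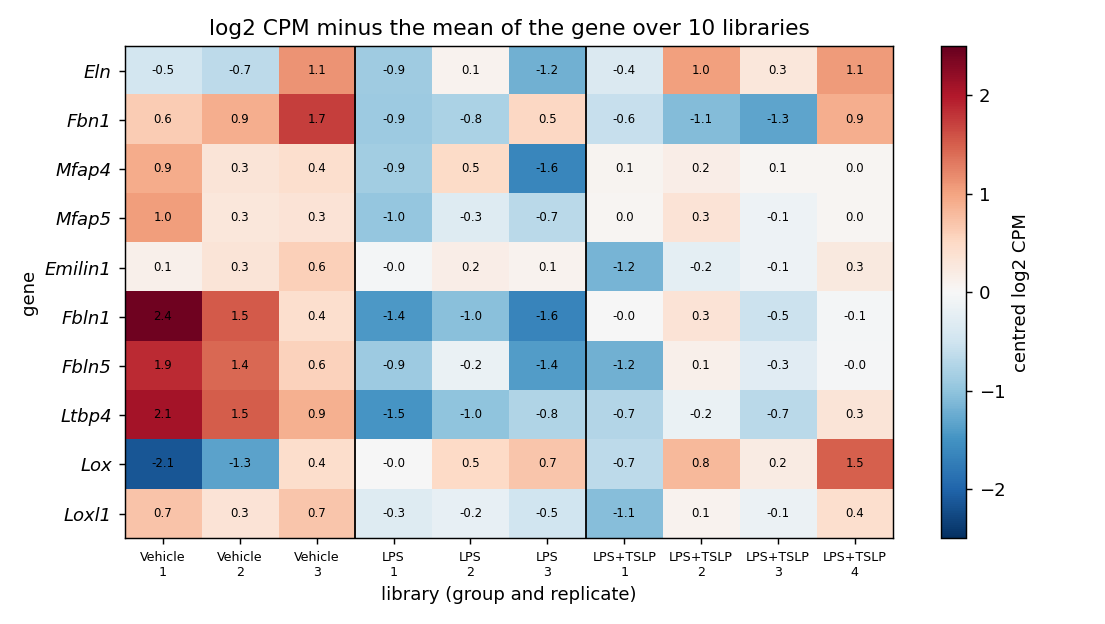
Centred log2 CPM of the 10 genes (rows) in the 10 libraries (columns, by group and replicate), as the difference from the mean of each gene over all libraries; red is higher, blue is lower and numbers give the values. Fbln1, Fbln5, Ltbp4, Mfap5 and Loxl1 are red in all Vehicle libraries and blue in all LPS libraries, whereas Lox is bluest in Vehicle replicates 1 and 2.

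LPS+TSLP against Vehicle shares the Vehicle libraries with the first comparison and the LPS+TSLP libraries with the comparison before it. Of the 10 genes, 3 were called lower (5.35% of all genes were) and none higher (8.82% of all genes were); 0 had a positive value with an unadjusted p under 0.05 and 6 a negative one, where 5651 of all 17139 genes had such a p in either direction, and neither limma-voom nor the DESeq2 Wald test called a member higher. All LPS+TSLP libraries lay below all Vehicle libraries for 4 genes, where 15.9% of all genes did, and above them for 0, where 15.7% of all genes did. The median log2 fold change was −0.638, beside 0.0269 over all genes tested.

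Ltbp4 fell by 1.82 on the log2 scale relative to Vehicle (SE 0.34, adjusted p = 0.00799), and was called in every alternative setting. Fbln1 fell by 1.72 (SE 0.38, adjusted p = 0.0168) and Fbln5 by 1.65 (SE 0.39, adjusted p = 0.0199). Both calls were lost when Vehicle replicate 1, Vehicle replicate 2 or LPS+TSLP replicate 3 was left out, with values for Fbln1 of −1.12 (adjusted p = 0.0857), −1.80 (adjusted p = 0.0518) and −1.58 (adjusted p = 0.0531). The values for Fbln5 without those libraries were −1.34 (adjusted p = 0.0913), −1.65 (adjusted p = 0.0654) and −1.64 (adjusted p = 0.0574). Mfap5, which fell after LPS alone, had a value of −0.52 here (SE 0.23, adjusted p = 0.141). Mfap4 did not overlap between groups but did not pass (−0.49, SE 0.39, adjusted p = 0.407).

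Among the others, Fbn1 had a value of −1.39 (SE 0.55, adjusted p = 0.105). It passed without LPS+TSLP replicate 4, its highest library of that group, at −2.09 (adjusted p = 0.0121), and by the DESeq2 Wald test (−1.39, adjusted p = 0.0365). Emilin1 stood at −0.60 (SE 0.28, adjusted p = 0.156). Loxl1 stood at −0.67 (SE 0.29, adjusted p = 0.133). Eln was at 0.38 (SE 0.50, adjusted p = 0.63), which was 1.15 without Vehicle replicate 3 and 0.05 without Vehicle replicate 2. Lox was at 1.27 (SE 0.60, adjusted p = 0.169). Lox passed as higher without Vehicle replicate 3, at 2.34 (adjusted p = 0.0203).

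Ratios between members within a library were chosen after the values had been seen and carry no test. On the scale of CPM per kilobase, Lox to Loxl1 was 0.0859, 0.193 and 0.522 in Vehicle, 0.778, 0.999 and 1.43 in LPS, and 0.832, 1.03, 0.788 and 1.31 in LPS+TSLP. Every LPS-treated library was above every Vehicle library. Eln to Fbln5 was 2.21, 2.59 and 16 in Vehicle, 11.1, 13 and 12.7 in LPS, and 19.7, 20.4, 16.2 and 23.6 in LPS+TSLP. Here the LPS libraries were close together, all 4 LPS+TSLP libraries were above them, and Vehicle replicate 3 fell between those groups instead of beside its own. Eln to Ltbp4 was 0.27, 0.343 and 1.82 in Vehicle, 2.31, 3.28 and 1.14 in LPS and 1.99, 3.54, 3.04 and 2.61 in LPS+TSLP, so that the LPS-treated groups overlapped.

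**Figure D4:**
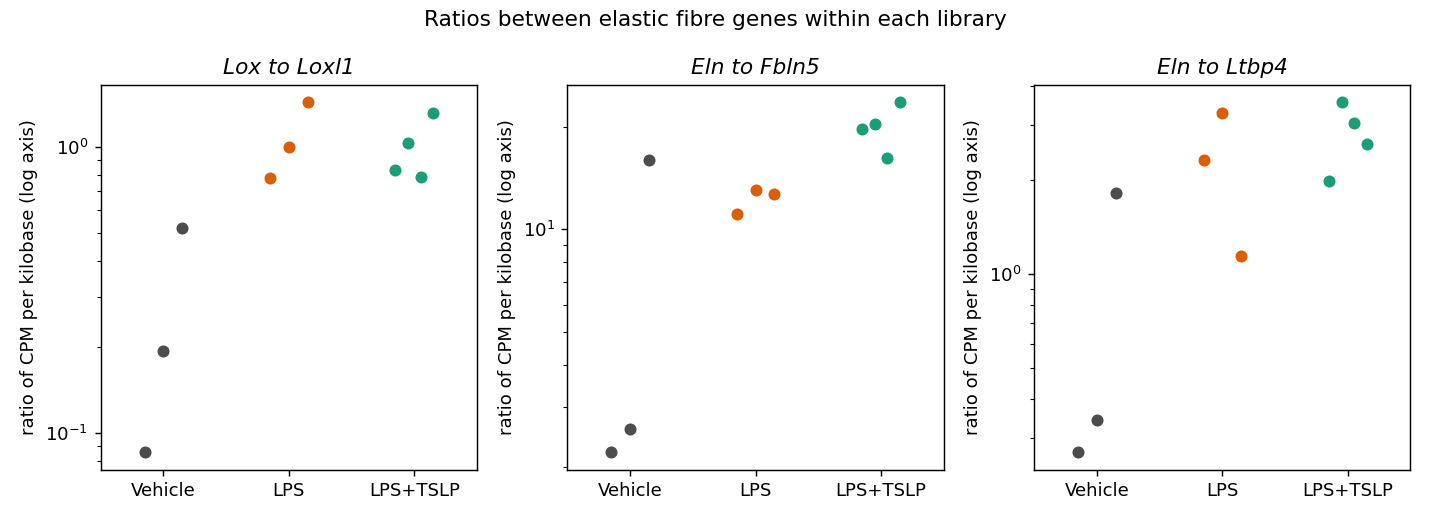
Ratio of CPM per kilobase (y axis, log scale) of Lox to Loxl1, Eln to Fbln5 and Eln to Ltbp4 in each library, by group (x axis); each point is 1 library. Lox to Loxl1 separates the Vehicle libraries (at most 0.522) from all LPS-treated libraries (at least 0.778), and Eln to Fbln5 separates LPS (at most 13) from LPS+TSLP (at least 16.2).

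Other genes of elastic fibre assembly were counted from a list of 18, of which 17 were tested; Fbn2 had too few counts and was at 0 in the LPS libraries. After LPS, 6 were lower (10.7% of all genes were), 0 were higher (14.2% of all genes were) and 11 did not pass. At an unadjusted p under 0.05, 7 were lower and 0 higher, and the median log2 fold change was −0.49. Fbln2, a fibulin of vessel walls, fell from 42.15 ± 11.13 to 8.992 ± 5.449 CPM (log2 fold change −2.23, SE 0.41, adjusted p = 0.0052). The other latent TGF-beta binding proteins were lower as well: Ltbp2 fell by 1.81 (adjusted p = 0.013), Ltbp3 by 1.61 (adjusted p = 0.00782) and Ltbp1 by 0.95 (adjusted p = 0.00836). Efemp1, which encodes fibulin-3, fell by 1.14 (adjusted p = 0.0116), and Adamtsl5, a microfibril-binding protein, by 0.69 (adjusted p = 0.0314).

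In LPS+TSLP against LPS, edgeR called 0 of the 17, with 3 higher and 0 lower at an unadjusted p under 0.05 and a median of 0.351. The smallest adjusted p belonged to Ltbp2 (1.18, adjusted p = 0.589), Mfap2, a microfibril glycoprotein related to Mfap5 (0.73, adjusted p = 0.599), and Ltbp3 (0.69, adjusted p = 0.61). Efemp1 was at 0.50 (adjusted p = 0.636), Adamtsl5 at 0.41 (adjusted p = 0.622) and Ltbp1 at 0.39 (adjusted p = 0.623). Against Vehicle, 1 of the 17 was lower in LPS+TSLP, where 5.35% of all genes were. This gene was Fbln2, which fell by 2.03 (SE 0.37, adjusted p = 0.00725). Ltbp3 (−0.91, adjusted p = 0.0612) and Ltbp1 (−0.55, adjusted p = 0.0627) were closest to the threshold among the rest. The count was 2 to 3 without Vehicle replicate 3, LPS replicate 1, LPS+TSLP replicate 1 or LPS+TSLP replicate 4.

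**Figure D5:**
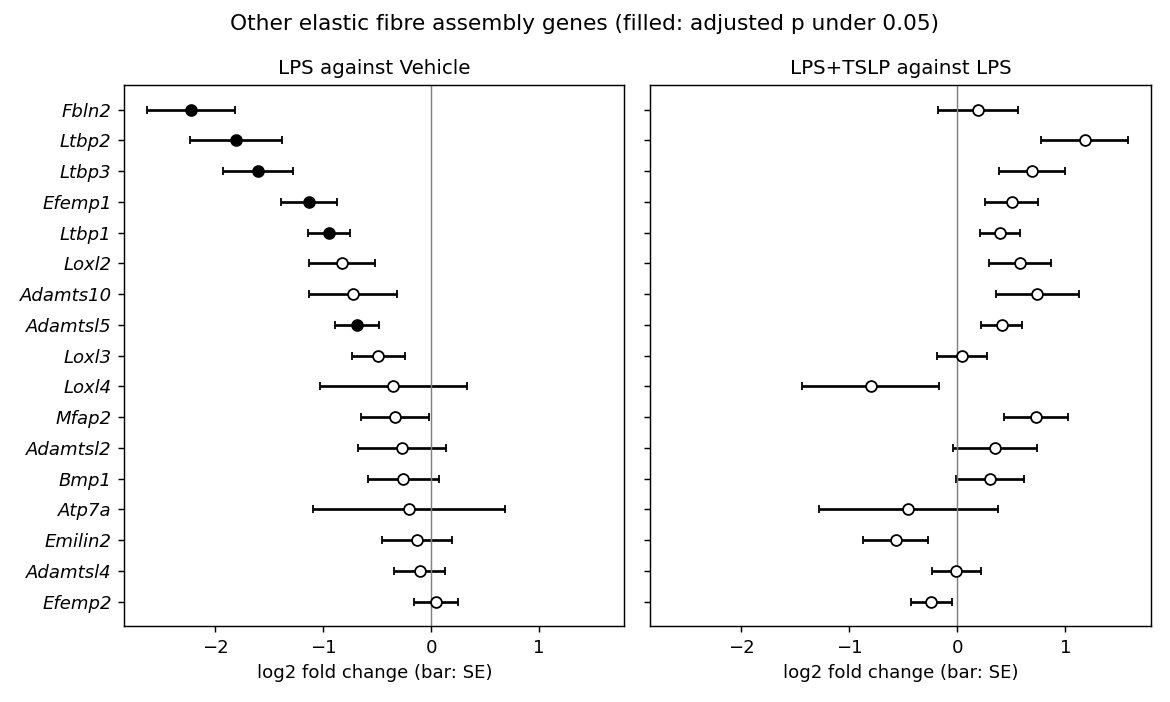
Fitted log2 fold change (x axis) of the 17 tested genes of the wider assembly list (y axis), with LPS compared to Vehicle on the left and LPS+TSLP compared to LPS on the right; bars are standard errors and filled points have an adjusted p under 0.05. The 6 filled points, all below 0, are Fbln2, Ltbp2, Ltbp3, Efemp1, Ltbp1 and Adamtsl5 for LPS against Vehicle, and the second panel has none.

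Elastin is broken down by metalloproteases, neutrophil serine proteases and cathepsins, and 14 such enzymes and inhibitors were tested. After LPS, 3 were higher and 2 lower, beside 14.2% and 10.7% of all genes, and the median log2 fold change was −0.238. Slpi, an inhibitor of neutrophil elastase, rose from 48.48 ± 26.89 to 235.8 ± 100.5 CPM (log2 2.28, SE 0.49, adjusted p = 0.00906). Mmp14, a membrane metalloprotease, rose by 1.03 (adjusted p = 0.0354), and Ctss, the elastolytic cathepsin S, by 1.11 (adjusted p = 0.0498). Mmp2, a gelatinase, fell by 1.77 (adjusted p = 0.00242), and the inhibitor Timp2 by 1.25 (adjusted p = 0.0107). Against LPS alone, edgeR called 0 of the 14 in LPS+TSLP, and 0 had an unadjusted p under 0.05; Slpi was at −0.82 (adjusted p = 0.657) and Mmp2 at 0.49 (adjusted p = 0.636). Against Vehicle, Mmp2 fell by 1.27 (adjusted p = 0.00789) and Timp2 by 0.99 (adjusted p = 0.0282), and Mmp14 rose from 139.5 ± 53.55 to 279.3 ± 84.03 CPM (adjusted p = 0.0467).

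In all, 6 TGF-beta ligands and receptors were tested, from the growth factor system that Ltbp proteins and fibrillin hold in the matrix. After LPS, 1 was lower and 0 higher, beside 10.7% and 14.2% of all genes. Tgfbr2, the type II receptor, fell by 0.89 relative to Vehicle (SE 0.28, adjusted p = 0.0416), and by 0.93 in LPS+TSLP relative to Vehicle (SE 0.26, adjusted p = 0.0375). The ligand genes Tgfb1, Tgfb2 and Tgfb3 did not pass in any comparison, and the value closest to the threshold in LPS+TSLP against LPS was 0.99 for Tgfb3 (adjusted p = 0.619).

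Markers of the cells that make these proteins moved in the same comparisons, and their part in the results was not tested. Of 11 fibroblast markers, 6 were lower after LPS and 0 higher, beside 10.7% and 14.2% of all genes (median log2 fold change −1.23). Their summed level was 5530 to 7020 CPM in Vehicle, 1680 to 3160 in LPS and 2560 to 4630 in LPS+TSLP. Smooth muscle markers (4 of 8 lower) summed to 763 to 1430, 537 to 608 and 653 to 1230 CPM in the same order of groups. Pericyte markers (3 of 6 lower) summed to 644 to 788, 276 to 423 and 418 to 617 CPM. After LPS, Cox4i2 (0.15) and Higd1b (0.38) of this list had positive log2 fold changes and were not called. In each of these lists the sums of all LPS libraries lay below those of all Vehicle libraries, and no marker was at 0 throughout. The sums of the endothelial, alveolar epithelial and fat cell lists below were separated in the same way. Endothelial markers (3 of 7 lower) summed to 3850 to 5000, 3350 to 3740 and 3050 to 3860 CPM, with a median log2 fold change of −0.202 after LPS and positive values for Cldn5, Ramp2 and Egfl7. Against Vehicle in LPS+TSLP, 3 fibroblast, 0 smooth muscle, 2 pericyte and 1 endothelial marker were lower, beside 5.35% of all genes. Against LPS, edgeR called none in these 4 lists. At an unadjusted p under 0.05, 1 fibroblast, 2 smooth muscle, 3 pericyte and 0 endothelial markers were higher there.

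Markers of other cells and of neighbouring tissue were summed in the same way. Airway cartilage markers summed to at most 4.03 CPM in any library, with Acan at 0 in all 10. Fat cell markers were low and lower after LPS (24.4 to 69.8 CPM in Vehicle, 8.75 to 12.4 in LPS and 8.63 to 15.3 in LPS+TSLP). Of 3 tested, 2 were called lower after LPS, where 10.7% of all genes were. Mesothelial markers summed to 195 to 315, 172 to 301 and 164 to 299 CPM, most of it Krt19, which had a log2 fold change of 0.03 after LPS. Of the 5, 0 were called by edgeR after LPS and 3 were lower at an unadjusted p under 0.05 with no overlap. Upk3b averaged 24.24 CPM in Vehicle and 2.675 in LPS, Lrrn4 6.905 and 1.084, and Wt1 1.233 and 0.4863. Of all 17139 genes, 6788 had such a p in either direction, and 25.1% were lower without overlap. The list median was −1.33, and 1 marker, Wt1, was called lower in LPS+TSLP against Vehicle (adjusted p = 0.0304), where 5.35% of all genes were. Heart muscle markers ranged widely inside every group (24.4 to 491, 7.06 to 192 and 9.95 to 503 CPM), and 0 of 5 were called, as were 0 of 4 skeletal muscle markers tested. Neutrophil markers, of a cell that carries elastase, summed to 373 to 1160, 1540 to 2100 and 557 to 1070 CPM. After LPS, 1 of 8 was called higher, where 14.2% of all genes were. The list median there was 1.18, with 7 values above 0 and 1 below. An unadjusted p under 0.05 was found for 4 markers, all higher, where 6788 of all 17139 genes had such a p in either direction. Without overlap of the groups, 4 markers were higher and 0 lower, where 24.7% of all genes were higher in this way. In LPS+TSLP against LPS edgeR called 0 of the 8, and the median was −1.48. At an unadjusted p under 0.05, 5 were lower, where 1388 of all 17139 genes had such a p in either direction. For 6 markers all LPS+TSLP libraries lay below all LPS libraries, where 3.54% of all genes did. Alveolar epithelial markers, which check the tissue label, were abundant throughout, at 16000 to 25600, 6210 to 15300 and 4160 to 24400 CPM, with 0 of 6 called.

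Genes with the most similar profile were sought among 14661 protein-coding genes by the root mean square difference of centred log2 CPM over the 10 libraries, a description in which all genes share libraries and depth. Closest to the mean profile of the 10 members were Col6a2 (0.122), Tns1 (0.128), Lamb1 (0.131), Tcf7l1 (0.152) and Vldlr (0.152). Of the members, Loxl1 was nearest to that mean (0.228), followed by Mfap5 (0.302), and Lox was farthest (1.28). Closest to Eln alone were Aif1l (0.372), Kcna2 (0.405), 2810021J22Rik (0.418), Asxl3 (0.451) and Begain (0.458).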

How the data were processed

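Gene counts are the authors' deposited raw read counts, for which the submitters' processing notes name GRCm38/mm10, CASAVA, HISAT2 and the counter HTSeq 0.6.0. The annotation release and strand setting are not given in the sources used here. Of 54532 genes, 54495 (99.93%) matched GENCODE M21, which gave positions and exon lengths. Genes kept by filterByExpr (17139) were scaled by TMM and tested two-sided by the robust quasi-likelihood method of edgeR 4.0.16 under R 4.3.3, in 1 fit of 10 libraries and 3 groups (7 residual degrees of freedom). A call is a Benjamini-Hochberg adjusted p under 0.05 over all genes. The standard error is the absolute log2 fold change divided by the square root of F. CPM values are TMM-scaled, and log2 CPM used a prior count of 2. The procedure was tested on simulated counts with large planted changes, for LPS against Vehicle only. Changes as small as those of most members were not simulated.

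Members and gene lists were chosen with earlier results of these data known. All members are named; from other lists, up to 6 genes per comparison with the smallest adjusted p. Alternatives were other scaling factors, other filters, limma-voom (limma 3.58.1), DESeq2 1.42.0, the compared groups alone, a replicate block, removal of a GC trend, removal of mitochondrial, haemoglobin and immunoglobulin genes, a threshold of 0.01, and leaving libraries out. Chi-square comparisons of the libraries within each group found no duplicate.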

Additional observations from a re-analysis of the deposited data

How the results depend on the processing

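Over 22 alternatives per gene, the 4 calls of LPS against Vehicle (Fbln1, Fbln5, Mfap5, Ltbp4) were made in every one. The number called higher there ranged from 0 to 1 as single libraries were left out (Lox, without Vehicle replicate 3). In LPS+TSLP against Vehicle the number called lower was 5 with the replicate block, 1 at an adjusted p under 0.01, and from 1 (without Vehicle replicate 1, Vehicle replicate 2 or LPS+TSLP replicate 3) to 4 (without LPS+TSLP replicate 4); the number called higher ranged from 0 to 1. In LPS+TSLP against LPS no alternative called a member. Of the other assembly genes, 3 and not 6 were lower in LPS against Vehicle at an adjusted p under 0.01, and in LPS+TSLP against Vehicle 2 and not 1 with no filter, 3 by the DESeq2 Wald test and 3 with the block. With the block, Fbn1 passed against Vehicle in LPS (−1.46, adjusted p = 0.0265) and in LPS+TSLP (−1.99, adjusted p = 0.0152), as did Emilin1 in LPS+TSLP (−0.85, adjusted p = 0.0316).

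Signs changed for 3 genes that did not pass. Emilin1 in LPS against Vehicle was 0.044 with the GC trend removed. In LPS+TSLP against LPS, Fbn1 was −0.11 by limma-voom, −0.53 with the replicate block, −0.012 with the GC trend removed, −0.14 without both LPS replicate 1 and LPS+TSLP replicate 1, and from −0.68 to 0.59 with single libraries left out. Lox there was −0.24 with the block and from −0.17 to 0.48 with single libraries left out. The cause was not tested. Same-numbered libraries had correlations after removal of group means of 2.6e-05, −0.24 and 0.072 (LPS and Vehicle), 0.32, 0.4 and −0.1 (LPS+TSLP and LPS) and −0.096, −0.34 and 0.16 (LPS+TSLP and Vehicle), so the numbers were not read as a pairing.

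Over all genes, calls in LPS against Vehicle (2437 higher, 1836 lower) ranged from 1012 to 2975 higher and from 640 to 2449 lower with single libraries left out, and were 831 and 415 at an adjusted p under 0.01. In LPS+TSLP against Vehicle (1511 and 917) the ranges were 404 to 2015 and 81 to 1478. The counts there were 465 and 62 at an adjusted p under 0.01, 767 higher with the GC trend removed, 1592 lower with the block, 2296 and 1629 by the DESeq2 Wald test, and 2333 and 1509 without both LPS replicate 1 and LPS+TSLP replicate 1. The lowest count of a member in a library was 222; how far depth limited precision was not tested.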
